A study of Mus musculus with 9 samples.

Results

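Dmc1 encodes the meiosis-specific strand-exchange recombinase, and it was examined here with 8 other genes of meiotic recombination and synapsis in early mouse embryos. The 9 genes (Dmc1, Sycp1, Sycp2, Sycp3, Hormad1, Rec8, Stag3, Smc1b and Msh4) were taken by symbol from a deposited table of 19359 genes, and all 9 were found. They are genes of 1 process grouped around Dmc1, and were selected on CPM values of these same libraries, with the higher level of Dmc1 in the transfer embryos known. The difference in Dmc1 is therefore given as a description with no p-value, as are all differences of the 9 genes between the later-transfer group and the controls.

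The study measured poly(A) RNA in mouse embryos collected 34 h after fertilization, with 3 embryos pooled for each library. The 3 groups had 3 libraries each, lettered A to C. Pronuclear transfer moves the parental pronuclei of a zygote into another cytoplasm. SPN embryos underwent a sham version of this procedure and were the controls, EPN embryos underwent it early, and LPN embryos underwent it at a later time. The hour of transfer in each group is not in the labels. All groups share 1 protocol text, in which oocytes and eggs came from gonadotropin-stimulated B6D2F1 females aged 8 to 12 weeks, with no genotype or transgene named. The same text describes enucleated germinal vesicle oocytes prepared as abnormal cytoplasts, without saying which group received them, and it does not name the males. Each library averages its pool, so 1 embryo with a high level cannot be told apart from 3 with a moderate one, nor fewer expressing cells from less RNA per cell. The labels do not say that pools came from separate experiments, and p-values therefore reflect no more than how far these libraries differ among themselves.

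In meiosis, programmed double-strand breaks are resected and their ends are loaded with recombinases such as DMC1, which search for the matching sequence on the homologous chromosome. HORMAD1, SYCP2 and SYCP3 build the protein axis of each chromosome, SYCP1 joins the axes of the homologs as the transverse filament of the synaptonemal complex, and REC8, STAG3 and SMC1B are meiotic subunits of the cohesin ring. MSH4 works with MSH5 to stabilise recombination intermediates that can become crossovers. In the female these events take place in the fetal ovary, long before the egg is fertilized, and the promoters of many germline genes of this kind are silenced by DNA methylation in somatic tissues.

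Library totals ran from 7611781 to 15559218 reads, so that 1 read equalled 0.0643 to 0.131 CPM, the scale of the deposited values, on which a gene's reads are divided by the library total. A count of 0 allows up to 3 reads, or 0.193 to 0.394 CPM, a limit that covers counting error only. Differences are on the log2(CPM + 1) scale, and fold differences were taken from that scale, which understates the change of genes at low levels. Of 14876 genes tested with limma over all 9 libraries, the median difference was -0.07 for EPN minus SPN, -0.17 for LPN minus SPN and -0.14 for LPN minus EPN. The 3 comparisons share libraries, so their values are set side by side and are not independent of each other. SPN library A stood apart from its group: across genes, its rank correlation averaged 0.916 with EPN libraries but 0.897 with SPN B and SPN C, against 0.908 and 0.907 for those 2 libraries within the SPN group. Results that change without it are given both ways.

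Dmc1 was low in the controls, with no read in 1 of them, and present in every transfer library. It measured 3.22, 1.95 and 0 CPM in SPN libraries A, B and C, which were 45, 22 and 0 reads. In EPN it measured 10.6, 17.8 and 8.69 CPM, from 147, 228 and 116 reads. In LPN it measured 16.0, 29.0 and 7.96 CPM, from 249, 221 and 95 reads. All 6 transfer libraries lay above all 3 control libraries, while the ranges of EPN and LPN overlapped. The group means were 1.72 ± 1.62, 12.4 ± 4.81 and 17.7 ± 10.6 CPM (SD, n = 3 each). On the log2(CPM + 1) scale Dmc1 was higher by 2.47 (SE 0.63) in EPN than in SPN and by 2.84 (SE 0.63) in LPN than in SPN, which are 5.54-fold and 7.16-fold. LPN exceeded EPN by 0.37 (SE 0.63), less than its standard error. Without SPN A the differences from the controls were 2.90 for EPN and 3.27 for LPN.

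**Figure D1:**
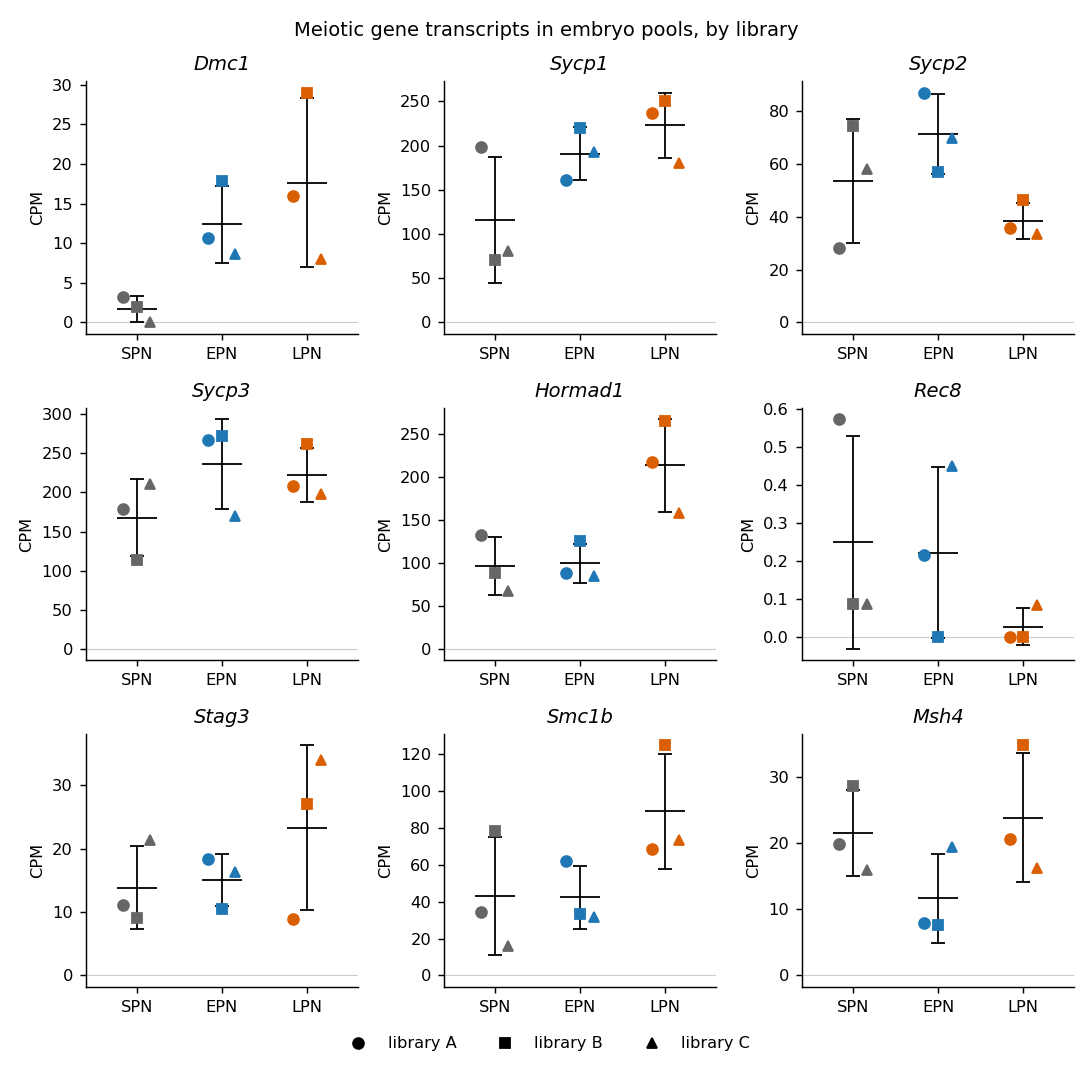
CPM of each of the 9 genes in the 3 SPN, 3 EPN and 3 LPN libraries; each point is 1 library, the dash is the group mean, the bar is the SD, and each panel has its own axis. Dmc1 lies at 3.22 CPM or less in SPN and at 7.96 CPM or more in every transfer library, Hormad1 is highest in LPN, and Rec8 stays near 0 in all groups.

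Sycp1, which encodes the transverse filament of the synaptonemal complex, had 1 control library that resembled the transfer groups. It measured 198, 70.2 and 80.3 CPM in SPN A, B and C, 161, 220 and 193 CPM in EPN, and 237, 251 and 181 CPM in LPN. SPN A lay inside the ranges of both transfer groups, and SPN B and SPN C lay below every transfer library. The means were 116 ± 71.2, 191 ± 29.6 and 223 ± 37.1 CPM (SD, n = 3 each). EPN exceeded SPN by 0.86 (SE 0.33) on the log2 scale, which did not pass the test (limma, adjusted p = 0.313). Without SPN A the same difference was 1.32 with an adjusted p of 0.0096 in limma. SPN A was set apart for its likeness to EPN, so leaving it out favours such calls and adds no support. In that fit 451 of all tested genes were called in EPN against SPN, against 16 with all libraries. Sycp1 passed in this comparison in 2 of 20 settings. LPN was higher than SPN by 1.08, or 2.12-fold, and by 1.54 without SPN A. LPN and EPN differed by 0.22 (limma, adjusted p = 0.744).

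Hormad1, the gene of an axis protein that promotes break formation and pairing of homologs, differed from Dmc1 in that its level in EPN was close to that of the controls. It measured 133, 88.6 and 67.0 CPM in SPN, 88.7, 126 and 85.4 CPM in EPN, and 218, 266 and 158 CPM in LPN. Every LPN library lay above all SPN and EPN libraries, whose ranges overlapped each other. The means were 96.3 ± 33.8, 100.1 ± 22.6 and 214 ± 54.1 CPM (SD, n = 3 each). The difference between EPN and SPN was 0.09 (SE 0.32; limma, adjusted p = 0.945). LPN exceeded EPN by 1.08, or 2.11-fold, with an adjusted p of 0.0674 in limma, just short of the threshold of 0.05. Without SPN A the LPN against EPN adjusted p was 0.027 in limma, and without LPN C it was 0.0469. Those fits called 762 and 268 of all tested genes in this comparison, against 228 with all libraries. LPN was higher than SPN by 1.17, or 2.25-fold, and by 1.43 without SPN A.

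The remaining axis genes, Sycp2 and Sycp3, did not follow Dmc1. Sycp2 measured 28.1, 74.4 and 58.4 CPM in SPN, 87.2, 56.9 and 70.0 CPM in EPN, and 35.9, 46.4 and 33.5 CPM in LPN. The SPN libraries spanned nearly the whole range of the gene, and the LPN libraries all lay below the EPN libraries. The LPN against EPN difference was -0.86 and did not pass the test (limma, adjusted p = 0.195), and that between EPN and SPN was 0.49 (SE 0.37; adjusted p = 0.650). LPN against SPN the difference was -0.37, the only negative one among the 8 genes tested. Sycp3 measured 179, 114 and 210 CPM in SPN, 267, 272 and 170 CPM in EPN, and 209, 262 and 198 CPM in LPN. All 3 groups overlapped, with differences of 0.51 in EPN against SPN (SE 0.30; limma, adjusted p = 0.547), 0.44 in LPN against SPN and -0.06 between LPN and EPN (adjusted p = 0.930), the last of which is 0.07 under median-of-ratios scaling. Exons of Sycp3 share 660 bases with Chpt1 on the opposite strand, which averaged 35.2 ± 7.40, 31.0 ± 9.82 and 64.1 ± 23.1 CPM in SPN, EPN and LPN (SD, n = 3 each). Counting by strand is not stated, so reads of the shared bases cannot be assigned.

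Among the cohesin genes, Smc1b was higher in LPN without passing the test against EPN, Stag3 varied more within LPN than between groups, and Rec8 was barely detected. Smc1b encodes the meiotic counterpart of SMC1A and measured 34.6, 78.6 and 16.0 CPM in SPN, 62.0, 33.6 and 31.5 CPM in EPN, and 68.7, 125 and 73.5 CPM in LPN. SPN B lay within the LPN range, while no EPN library did. LPN exceeded EPN by 1.07 (limma, adjusted p = 0.167) and SPN by 1.25, and EPN and SPN differed by 0.19 (SE 0.43; adjusted p = 0.905). Stag3, the meiotic STAG subunit, measured 11.1, 9.13 and 21.3 CPM in SPN, 18.4, 10.5 and 16.3 CPM in EPN, and 8.93, 27.1 and 34.0 CPM in LPN. LPN held both its lowest and its highest library. Its differences were 0.16 in EPN against SPN (limma, adjusted p = 0.936), 0.61 in LPN against SPN and 0.45 between LPN and EPN (adjusted p = 0.664). Rec8, which encodes the meiotic kleisin that closes the ring, had 8, 1 and 1 reads in SPN, 3, 0 and 6 in EPN, and 0, 0 and 1 in LPN. It failed the filter of at least 1 CPM in at least 3 libraries and was not tested, and at this depth no difference was detectable.

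Msh4, the only crossover gene among the 9, was lowest in EPN in 2 of its 3 libraries. It measured 19.8, 28.6 and 15.9 CPM in SPN, 7.95, 7.58 and 19.3 CPM in EPN, and 20.6, 34.7 and 16.2 CPM in LPN. EPN C lay within both other groups, and EPN A and EPN B lay below them. The differences were -0.91 in EPN against SPN (SE 0.48; limma, adjusted p = 0.482), 0.11 in LPN against SPN and 1.03 between LPN and EPN (adjusted p = 0.236). Its exons share 125 bases with the opposite-strand small nucleolar RNA gene Gm24395, which was not analysed here.

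In EPN against SPN, none of the 7 tested genes other than Dmc1 passed the limma test, where 0.108% of all tested genes did. Only Sycp1 had an unadjusted p under 0.05, as did 11.04% of all tested genes, and edgeR and DESeq2 on reads recovered from the CPM values called 0 each. In LPN against SPN, Dmc1, Sycp1 and Hormad1 lay past the threshold, beside 8.8% of all tested genes. Since the genes were proposed with results of this comparison known, nothing is read from that count. In LPN against EPN, 0 of the 7 passed, beside 1.53% of all tested genes. Of these, 4 had an unadjusted p under 0.05, as did 19.3% of all tested genes. edgeR called 0 of the 7, and DESeq2 called 1, Hormad1, among 926 genes it called in all. The groups did not overlap for 1, 2 and 3 of the 8 tested genes in the comparisons in that order, against 14.6%, 27.5% and 26.6% of all tested genes. Dmc1 was the 1 gene in EPN against SPN, and Dmc1 and Hormad1 were the 2 in LPN against SPN. The 8 genes, Dmc1 included, had a median log2 difference of 0.34 between EPN and SPN, 0.85 between LPN and SPN, and 0.41 between LPN and EPN. The genes were chosen with the higher level of Dmc1 in the transfer embryos known. Nothing is therefore read from the overlap counts and medians against SPN.

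**Figure D2:**
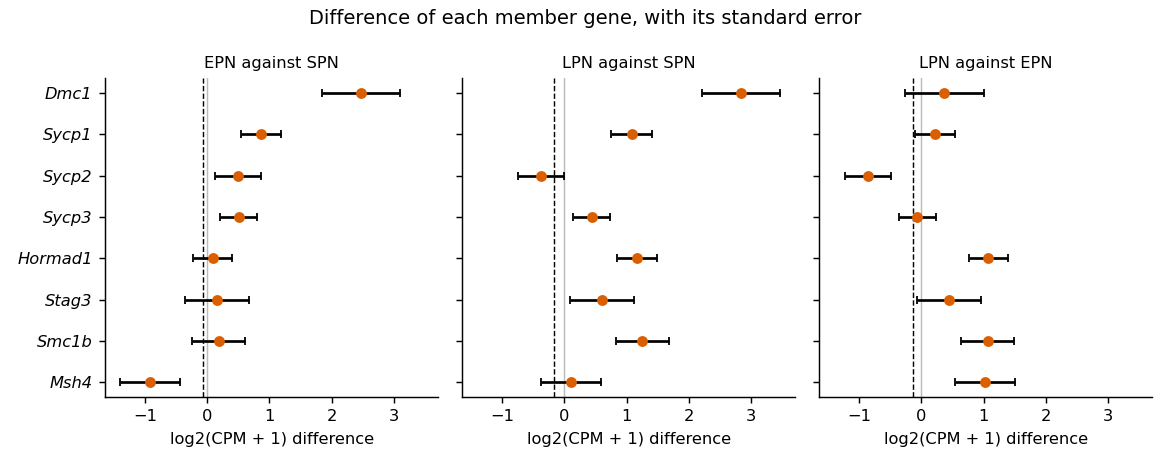
Difference in log2(CPM + 1) for each of the 8 tested genes for the 3 pairs of groups, with bars of 1 SE; the dashed line is the median of all tested genes in that comparison. Dmc1 is displaced in both comparisons with SPN (2.47 and 2.84). Hormad1 (1.17 and 1.08) and Smc1b (1.25 and 1.07) are displaced in both comparisons that involve LPN.

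Per kilobase of the longest protein-coding transcript, Sycp3 had the highest mean of the 9 genes in all 3 groups, at 143, 202 and 190 CPM per kb in SPN, EPN and LPN, with the reserve on bases shared with Chpt1. Hormad1 and Sycp1 followed in each group, and in LPN the ranges of Sycp3 (169 to 224) and Hormad1 (105 to 176) overlapped. Dmc1 was the 8th of 9 in SPN at 0.777 CPM per kb, the 6th in EPN at 5.58 and the 5th in LPN at 7.96. Only Rec8 was below Dmc1 in SPN, and Stag3, the next above it there, did not overlap it. In EPN the ranges of Dmc1 and Stag3 overlapped (3.57 CPM per kb for Stag3). In LPN the ranges of Dmc1 and Msh4 overlapped (7.16 CPM per kb for Msh4), while Smc1b, the next above at 21.99, lay clear of Dmc1. Among the leading genes, Hormad1 and Sycp1 overlapped in SPN and EPN and not in LPN, where Hormad1 averaged 142 and Sycp1 64.9 CPM per kb.

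The sequence before the transcription start was read for all 9 genes from RefSeq (GRCm38.p6, an older assembly than the GRCm39 build of the deposited data), and 4 are printed. They show Dmc1, both other genes that lay past the threshold in LPN against SPN, and Sycp2, whose LPN against SPN difference had the opposite sign. These differences are a description only, and the choice of genes to print tests nothing. Each run is the 250 bases upstream of the start, written 5′ to 3′ along the gene's own strand. Capitals mark the E-box CACGTG, which reads the same on both strands, and the E2F-type core TCCCGC or its reverse complement GCGGGA. Both motifs were picked after the sequences had been seen. Dmc1 is at chr15:79605110-79605359 on the minus strand, Sycp1 at chr3:102936101-102936350 on the minus strand, Hormad1 at chr3:95559427-95559676 on the plus strand and Sycp2 at chr2:178407659-178407908 on the minus strand.
Dmc1: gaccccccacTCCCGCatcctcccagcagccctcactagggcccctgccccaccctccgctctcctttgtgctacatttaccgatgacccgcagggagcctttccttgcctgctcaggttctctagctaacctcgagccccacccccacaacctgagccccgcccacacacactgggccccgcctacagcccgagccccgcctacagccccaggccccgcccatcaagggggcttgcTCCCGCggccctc
Sycp1: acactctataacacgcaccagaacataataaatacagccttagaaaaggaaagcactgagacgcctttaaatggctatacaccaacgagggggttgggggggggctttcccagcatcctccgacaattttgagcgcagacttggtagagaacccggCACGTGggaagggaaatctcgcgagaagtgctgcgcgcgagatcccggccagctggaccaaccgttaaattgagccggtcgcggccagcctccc
Hormad1: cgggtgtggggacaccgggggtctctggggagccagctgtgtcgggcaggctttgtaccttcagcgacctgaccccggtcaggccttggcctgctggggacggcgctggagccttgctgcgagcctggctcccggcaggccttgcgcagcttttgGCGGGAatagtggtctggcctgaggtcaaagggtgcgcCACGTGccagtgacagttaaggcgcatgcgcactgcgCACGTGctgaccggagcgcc
Sycp2: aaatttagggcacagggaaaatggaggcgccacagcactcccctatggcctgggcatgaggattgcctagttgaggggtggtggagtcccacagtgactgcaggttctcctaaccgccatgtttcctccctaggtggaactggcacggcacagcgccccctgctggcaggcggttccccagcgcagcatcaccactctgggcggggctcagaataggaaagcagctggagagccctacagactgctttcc

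In windows of 250 bases before to 50 bases after the start, CACGTG was found at 4 of the 9 genes (Sycp1, Sycp3, Hormad1 and Stag3) and in 7.15% of 32851 promoter windows in the genome. TCCCGC, on either strand, was found at 7 of the 9, all but Sycp2 and Msh4, and in 19.98% of the windows. No match of one motif overlapped a match of the other. Dmc1 held TCCCGC in 2 places and no CACGTG, and Sycp3 and Hormad1 each held CACGTG in 2 places. Hormad1 had 2 listed start sites, and only the first listed was read. Dmc1 had the highest GC content of the 9 windows, 69%, and Msh4 the lowest, 43.33%, beside a median of 52.67% over all windows. A match of this kind describes the letters only, and these libraries hold no measurement of binding or methylation at the promoters.

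Other genes of the meiotic programme were followed in a list of 65, of which 63 were in the table and 60 were tested. In EPN against SPN, 0 of the 60 passed the limma test, 10 had an unadjusted p under 0.05 (11.04% of all tested genes did), edgeR called 0 and DESeq2 called 1. In LPN against SPN, 8 of the 60 rose, 2 fell and 50 did not pass, beside 3.26% of all tested genes higher and 5.54% lower. The list median was 0.65 above the median of all tested genes in that comparison. In LPN against EPN, 0 were higher and 2 were lower in LPN, beside 0.692% and 0.84% of all tested genes.

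The genes that rose in LPN against SPN came from break formation, strand exchange, crossover formation and meiotic entry. Zcwpw1, a reader of the histone marks left by PRDM9 at recombination hotspots, rose from 23.2 ± 15.7 to 83.2 ± 9.19 CPM (SD, n = 3 each), a difference of 1.98 (SE 0.39; limma, adjusted p = 0.00365). Prdm9 itself, the methyltransferase that sets hotspot positions, rose from 11.4 ± 4.96 to 30.5 ± 7.15 CPM (limma, adjusted p = 0.0459). This call was lost in 12 of 19 alternatives. Fignl1, an ATPase that dismantles recombinase filaments, rose from 13.8 ± 9.81 to 54.6 ± 21.3 CPM (limma, adjusted p = 0.00898). Of the 15 crossover genes tested, 4 rose, of which 3 are described. Ccnb1ip1, a ubiquitin ligase needed for crossovers, went from 80.0 ± 30.1 to 205 ± 26.8 CPM (limma, adjusted p = 0.00839), and it shares 233 exon bases on the same strand with the RNase P RNA gene Rpph1, whose highest value in the table was 0.156 CPM. Shoc1, a partner in crossover designation, went from 17.9 ± 1.10 to 46.9 ± 12.1 CPM (limma, adjusted p = 0.0385), and the helicase gene Hfm1 from 6.17 ± 4.60 to 21.1 ± 7.44 CPM (adjusted p = 0.0389). In EPN, Zcwpw1, Prdm9 and Fignl1 averaged 44.4 ± 9.40, 29.4 ± 9.88 and 21.5 ± 5.92 CPM (SD, n = 3 each). Ccnb1ip1, Shoc1 and Hfm1 averaged 125 ± 32.1, 27.1 ± 8.56 and 14.9 ± 6.02 CPM there. None of these genes was called by limma in either comparison that involves EPN.

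The 5 meiotic entry genes moved in both directions in LPN against SPN. Meiosin, the partner of STRA8 in switching on meiotic genes, rose from 10.9 ± 8.56 to 29.9 ± 4.37 CPM (SD, n = 3 each; limma, adjusted p = 0.0309), and its EPN mean was 31.0 ± 5.04 CPM. Dazl, which encodes a germ cell RNA-binding protein stored in oocytes, fell from 107 ± 21.6 to 41.4 ± 9.31 CPM (limma, adjusted p = 0.0113). Meioc, needed to hold germ cells in meiotic prophase, fell from 40.2 ± 12.2 to 13.4 ± 3.00 CPM (limma, adjusted p = 0.0212). Both were also lower in LPN than in EPN, by -1.32 for Dazl (limma, adjusted p = 0.0389) and by -1.63 for Meioc (adjusted p = 0.0385). Both lost the call against EPN in each limma fit that left out 1 EPN or LPN library. Stra8 averaged 2.18 ± 3.10, 3.35 ± 1.93 and 0.642 ± 1.11 CPM in SPN, EPN and LPN and passed no test.

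Direct partners of the 9 genes (Psmc3ip, Mnd1 and Msh5) did not pass the limma test in any comparison. Psmc3ip, which encodes the HOP2 subunit that assists DMC1, averaged 112 ± 10.03, 71.9 ± 19.8 and 148 ± 15.5 CPM in SPN, EPN and LPN (SD, n = 3 each). No pair of groups overlapped for Psmc3ip, and its smallest adjusted p in limma was 0.0607, in LPN against EPN. Mnd1, which encodes the other subunit of that complex, averaged 2.74 ± 1.19, 1.70 ± 1.402 and 2.94 ± 0.171 CPM. Msh5, the partner of Msh4, averaged 9.35 ± 2.32, 11.4 ± 6.06 and 16.7 ± 4.98 CPM. Spo11, the gene of the enzyme that makes meiotic breaks, had 13 reads in EPN A, 21 reads in LPN C and none in the other 7 libraries, and did not pass the filter.

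Of the other meiotic groups, 0 of 8 tested synaptonemal complex and axis genes, 0 of 5 telomere attachment genes and 0 of 2 genes of meiotic cohesin and its protection passed in LPN against SPN by limma. Of all tested genes 8.8% passed, so a count of 0 does not set groups this small apart. At an unadjusted p under 0.05 the groups held, in that order, 2, 1 and 1 genes, beside 26.9% of all tested genes. edgeR called 0 in each group, and DESeq2 called 0, 1 and 1. The calls rested on few libraries: limma called 10 of the 60 genes with all libraries, 1 without LPN B, 1 without SPN C and 17 without SPN A. Zcwpw1 kept its call in each of these fits, and the other 9 lost theirs without LPN B and without SPN C.

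**Figure D3:**
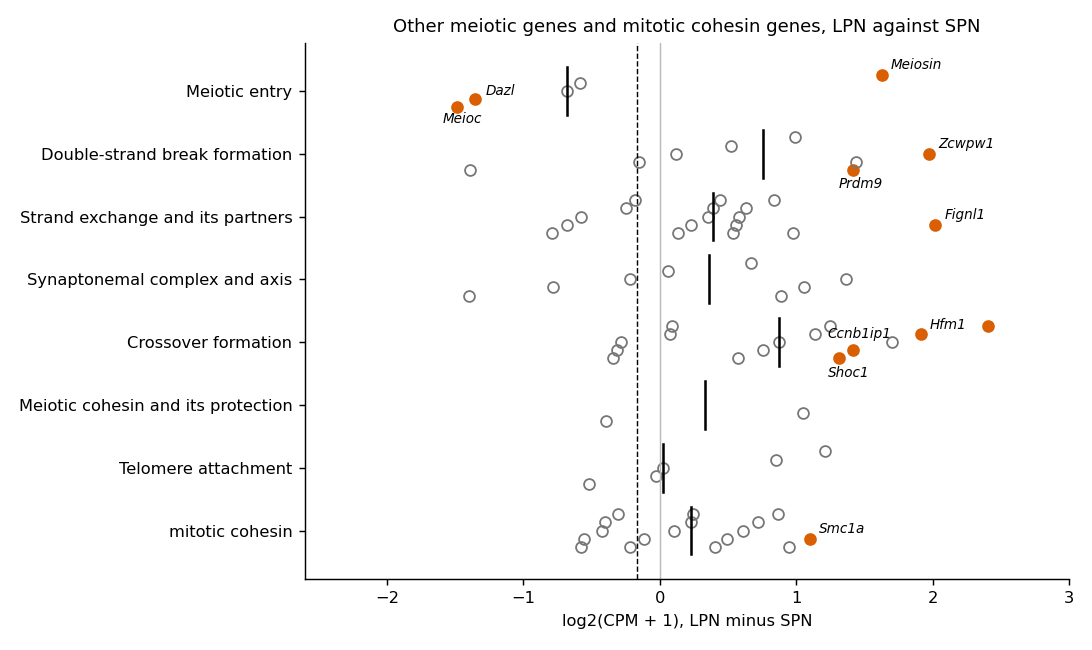
Difference in log2(CPM + 1) between LPN and SPN for 60 other meiotic genes in 7 functional groups and 17 mitotic cohesin genes; filled points had an adjusted p under 0.05 in limma, the short bar is the group median and the dashed line the median of all tested genes. Among the meiotic genes 8 filled points lie to the right and 2, Dazl and Meioc, to the left.

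The mitotic cohesin genes gave 1 call among 17 tested genes over the 3 comparisons, in LPN against SPN, where 8.8% of all tested genes were called. Smc1a, the mitotic counterpart of Smc1b, was 52.4 ± 4.69 CPM in the controls and rose in LPN, to 113 ± 0.584 CPM (SD, n = 3 each), a difference of 1.10 (SE 0.31; limma, adjusted p = 0.0261). In EPN it averaged 106 ± 21.5 CPM, 0.99 above SPN with an adjusted p of 0.213 in limma. In EPN against SPN limma called 0 of the 17, with 3 at an unadjusted p under 0.05 (11.04% of all tested genes), 0 called by edgeR and 1 by DESeq2. In LPN against EPN limma called 0, with 2 at an unadjusted p under 0.05 (19.3% of all tested genes), 0 by edgeR and 1 by DESeq2. There the smallest p was that of Sgo1, a protector of centromeric cohesion, which was 0.89 higher in LPN (limma, adjusted p = 0.0995). Leaving out 1 library at a time moved the LPN against SPN count between 0 and 7.

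Some markers of embryo stage and of other cells also differed between LPN and SPN. In EPN against SPN limma called 0 genes in every marker list, and cumulus and granulosa markers were called in no comparison. The 6 markers of the 2-cell stage summed to 1319 to 2890 CPM in SPN, 3443 to 5072 in EPN and 4070 to 6508 in LPN. In LPN against SPN limma called 4 of the 6 higher, beside 3.26% of all tested genes. The 7 oocyte-derived transcripts summed to 2738 to 3356 CPM in SPN, 2243 to 2653 in EPN and 1244 to 1888 in LPN. Most of this was Oosp1, with means of 1988, 1440 and 959 CPM. H1f8 averaged 102, 214 and 67.4 CPM, and Zp3 86.6, 107 and 196 CPM. In LPN against SPN limma called 4 of the 7 lower and 1 higher, beside 5.54% and 3.26% of all tested genes. The marker lists were chosen with earlier results of these data known, so nothing is read from these counts. Of 5 spermatocyte markers, 4 were in the table and summed to 49.0 to 59.7, 38.1 to 59.3 and 60.9 to 151 CPM. Within them Tex101 rose from 20.1 to 63.8 CPM in LPN against SPN, and Piwil1 fell from 5.90 to 0.53 CPM. Cumulus and granulosa markers (7 of 10 in the table) summed to 33.2 to 40.5, 21.8 to 52.7 and 26.9 to 36.4 CPM with Foxl2 at 0 in every library. Sperm markers (5 of 8 in the table) summed to 80.9 to 124, 54.6 to 111 and 47.8 to 55.2 CPM. Most of this was Odf2, with means of 100.4, 70.4 and 47.1 CPM, which fell in LPN against SPN. Prm2 averaged 6.93, 3.21 and 4.25 CPM, and Prm1, Tnp1 and Odf1 averaged at most 0.647 CPM in any group. The sums therefore mainly reflect Odf2 and do not show sperm RNA. The blood marker in the table, Hba-a1, measured 35.1 to 100.4, 32.9 to 77.1 and 9.13 to 26.1 CPM. The part of these marker levels in the results on the meiotic genes was not tested.

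Genes with profiles over the 9 libraries close to that of Dmc1 were sought among the 9206 genes that averaged 5 CPM or more. Likeness was the root mean square difference between log2(CPM + 1) profiles centred on their own means. Among the 5 nearest were Ldah at 0.66, Ctsc at 0.68, Zfp952 at 0.70 and Iqca1l at 0.71 log2 units. Ldah, like Dmc1, had no read in SPN C, and its SPN and transfer libraries overlapped. Zfp952 measured 13.3, 6.20 and 4.90 CPM in SPN, 19.5, 33.4 and 28.2 CPM in EPN, and 32.5, 27.1 and 16.8 CPM in LPN. Its 6 transfer libraries all exceeded its 3 controls. Picking genes for a profile close to that of Dmc1 favours this order, so nothing is read from it for the genes named here. Ctsc, which encodes the lysosomal protease cathepsin C, averaged 161 ± 101.3 CPM in the controls, 463 ± 50.2 CPM in EPN and 481 ± 74.0 CPM in the LPN libraries (SD, n = 3 each). The other 7 tested genes of recombination and synapsis were less alike: Sycp1 ranked 125th, Hormad1 356th, Smc1b 551st and Sycp3 1359th, and Stag3, Sycp2 and Msh4 ranked at 3555, 4023 and 4464.

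**Figure D4:**
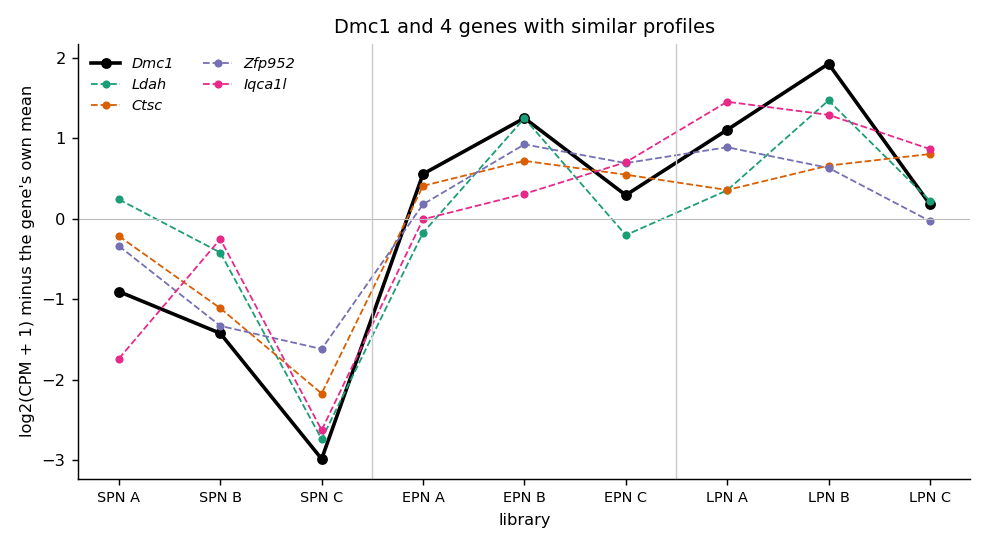
log2(CPM + 1) of Dmc1 (solid) and of 4 genes among the 5 with the most similar profiles in the 9 libraries, each centred on its own mean; lines only join the points of 1 gene. Dmc1 and Ldah are both lowest in SPN C, where neither had a read. Dmc1, Ctsc, Zfp952 and Iqca1l are higher in all 6 transfer libraries than in any control, an order that the choice by likeness to Dmc1 favours.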

How the data were processed

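Poly(A) RNA of 9 pools of mouse embryos was sequenced. The values deposited by the authors are CPM, in which the reads of a gene are scaled to a common library total. The authors' tools, per the submitters' processing notes, were HISAT2 2.2.1, edgeR, Trim Galore 0.6.7 and R 3.3.3, and the build was GRCm39; the read counter and annotation are not given in the sources used here. All CPM values (100%) were whole reads within a tolerance of 0.01 reads, and 3.66% to 5.68% of each library total lay outside the table. The 14876 genes that reached 1 CPM in 3 or more libraries were tested with limma 3.58.1 in R 4.3.3 (trend, log2 of CPM plus a pseudocount of 1, all 9 libraries, Benjamini-Hochberg over all tested genes, threshold 0.05). This test was tried on simulated data, with changes larger than most of those reported here, placed in LPN only. The changed genes averaged 5 CPM or more, so the trial does not cover smaller changes or lower levels. edgeR 4.0.16 (quasi-likelihood; 0, 477 and 17 genes called in EPN against SPN, LPN against SPN and LPN against EPN) and DESeq2 1.42.0 were run on the recovered reads as alternatives, beside other filters, scalings, pseudocounts, array weights, a replicate block and each library left out.

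The 9 genes, the pathway, cohesin and marker lists and the rule for named genes were chosen with earlier results of these data known. The rule named all 9 genes, every list gene past the threshold in any comparison, otherwise the gene with the smallest p in its list, and Psmc3ip, Mnd1, Msh5, Spo11, Stra8 and Meiosin in any case. It also named the 5 genes nearest to Dmc1, leaving out predicted and clone names. Genes named outside it are said to be so, and 2 genes that it takes in are not reported here. Transcript lengths and exon overlaps came from an annotation of GRCm38 (GENCODE M21), and promoter sequences from RefSeq on GRCm38.p6. Lengths were matched by symbol.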

Additional observations from a re-analysis of the deposited data

How the results depend on the processing

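Differences and calls were recomputed under 19 alternatives. Of the recomputed differences of single genes, counts of calls apart, 651 kept their direction and side of the threshold or, where no test was given, stayed within the spread between libraries, 74 lost and 16 gained a call, 5 of those with no test moved by more than that and 14 of those tested turned sign. The cause was not tested. Counts for the 8 tested members hold Dmc1 only as a description. Their count of limma calls in EPN against SPN was 0 and became 2 with array quality weights (0 to 2 without 1 library). In LPN against SPN, where it is a description for all 8, it was 3 and became 0 with edgeR and 1 with no filter on low values (0 to 3). In LPN against EPN it was 0 and became 1 with DESeq2, array weights, a fit of the 6 libraries, a mean of at least 5 CPM or a replicate block (0 to 1). The pathway count in EPN against SPN was 0 and became 1 with DESeq2 and 2 with array weights (0 to 2). In LPN against SPN it was 10, and became 16 with DESeq2, 6 with edgeR and 5 with the 6-library fit or no filter (1 to 17). In LPN against EPN it was 2, and became 9 with DESeq2 or array weights, 1 with median-of-ratios scaling, and 0 with edgeR, no filter or a pseudocount of 0.1 CPM (0 to 6). The mitotic cohesin count in EPN against SPN was 0 and became 1 with DESeq2 and 2 with array weights (0 to 3). In LPN against SPN it was 1, and became 2 with DESeq2 or the replicate block, 6 with array weights, 0 with the 6-library fit and 3 with the 5 CPM filter (0 to 7). In LPN against EPN it was 0 and became 1 with DESeq2 or array weights (0 to 1). Sycp3 in LPN against EPN turned to 0.068 with DESeq2, 0.029 with edgeR and 0.065 with median-of-ratios scaling (-0.28 to 0.053 without 1 library). Smc1b in EPN against SPN turned to -0.0114 with DESeq2, -0.0952 with array weights and -0.0154 with edgeR (-0.36 to 0.75). Without 1 library, Hormad1 in EPN against SPN ran from -0.14 to 0.35 and Stag3 from -0.070 to 0.50. Dmc1 ran from 1.86 to 3.76 in EPN against SPN, from 2.23 to 4.15 in LPN against SPN and from -0.06 to 0.82 in LPN against EPN over all alternatives. Over all tested genes the calls in LPN against SPN ran from 96 without SPN C to 2733 without SPN A. The main fit did not pair libraries by letter, because the labels do not say that letters pair them. Deviations of same-letter libraries correlated at -0.024 to 0.092, and not every library correlated best with its own letter. These values do not settle whether the letters mark pairs. With a replicate block, calls over all tested genes went from 1309 to 1644 in LPN against SPN and from 228 to 480 in LPN against EPN. Depth limits what can be said of Rec8, with at most 8 reads in a library, and of Dmc1 in the controls.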

Other observations

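Some genes of the meiotic lists followed other courses than Dmc1, and the 3 described here were chosen after their values had been seen. Syce2, a central element component of the synaptonemal complex, measured 389, 344 and 474 CPM in SPN, 302, 328 and 303 CPM in EPN, and 228, 238 and 230 CPM in LPN. No pair of groups overlapped, with EPN between the others, and the LPN against SPN difference of -0.78 (SE 0.26) had an adjusted p of 0.0563 in limma. Mei4, which is needed for meiotic break formation, measured 20.6, 21.7 and 18.2 CPM in SPN, 15.3, 12.0 and 5.09 CPM in EPN, and 8.23, 5.78 and 7.29 CPM in LPN, with an LPN against SPN difference of -1.39 (SE 0.52; limma, adjusted p = 0.0819). Kash5, which links meiotic telomeres to the cytoskeleton, measured 3.51, 5.32 and 6.74 CPM in SPN, 1.30, 6.41 and 1.65 CPM in EPN, and 17.7, 12.5 and 9.80 CPM in LPN. It was higher in all LPN libraries than in any other, with an LPN against EPN difference of 1.97 (SE 0.61; limma, adjusted p = 0.0802). None of these 3 differences passed the limma threshold.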
